A study of Mus musculus with 233 samples.

Results

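The heat shock proteins and their partner chaperones were examined in mouse striatum. The members are the protein-coding genes whose symbols place them in the HSP70 (Hspa), HSP110 (Hsph1), HSP90, small heat shock protein (Hspb), mitochondrial chaperonin (Hspd1, Hspe1), J protein (Dnaja, Dnajb, Dnajc), CCT chaperonin (Cct2 to Cct8) and BAG families. A total of 87 annotated genes fitted these names, and 86 of them were among the 41129 gene entries of the count table. Hspa14 was not analysed here. The families held 12 HSP70, 1 HSP110, 3 HSP90, 8 small HSP, 2 mitochondrial chaperonin, 4 DNAJA, 13 DNAJB, 28 DNAJC, 9 CCT and 6 BAG genes.

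Bulk polyA RNA was sequenced from 233 striatal hemispheres of 120 mice, in 30 groups of 6 to 8 libraries. The zQ175 mice were heterozygous zQ175DN knock-in animals, a Huntington's disease model with a human HTT exon 1 and its expanded CAG tract in the mouse Htt gene, and the wild-type (WT) mice were their littermates. Every animal of every group received virus (AAV2/2+1) in both striata. nZFP drove the HA-tagged zinc finger repressor ZFP30645, aimed at expanded CAG repeats, from the human synapsin promoter. DBD drove the same tagged protein without its DNA-binding domain from that promoter, and Estop held a stuffer that gives no mRNA or protein. This promoter is known for acting in neurons, and which cells of the tissue held the repressor was not measured here. Each of 5 paradigms carries in its name the age at injection and that at collection, in months. Treatment lasted 4 months in 2M_6M, 6 in 2M_8M, 2 in 6M_8M, 4 in 6M_10M and 6 in 6M_12M, an order that lists of 5 values keep. Both sexes were used, and 113 mice gave a library from each hemisphere. Among the 78 mice with a DBD library, the other hemisphere gave an nZFP library in 37 and an Estop library in 39.

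Chaperones bind unfolded stretches of other proteins. HSP70 works in cycles of ATP use: J proteins deliver clients and start ATP hydrolysis, while nucleotide exchange factors, among them BAG proteins and HSP110, reset the cycle. HSP90 takes clients further, small HSPs hold unfolding proteins, and the CCT ring folds actin and tubulin. Most chaperone families have separate members for the cytosol, the endoplasmic reticulum (ER) and the mitochondrion, and cytosolic members are known for limiting the aggregation of polyglutamine proteins such as mutant huntingtin.

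Of the 86 members, 77 had enough counts to be tested. The other 9 (Cct6b, Cct8l1, Dnajb7, Dnajb8, Dnajc22, Dnajc5b, Dnajc5g, Hspb7 and Hspb9) had means of at most 0.0936 CPM (counts scaled to a common library total, without regard to gene length). Depth ran from 28.0 M to 61.3 M expected counts per library (M, mega). The vector entries of 4 libraries went against their labels: WT DBD replicates 7 and 8 and zQ175 nZFP replicate 5 of 6M_8M, and WT DBD replicate 6 of 2M_6M. Another 3 stood apart in the balance of short against long genes, a length index that is higher where short genes have relatively more counts. It was 1.18, 1.10 and 1.29 in zQ175 DBD replicate 3 of 2M_6M, WT DBD replicate 2 of 6M_10M and zQ175 nZFP replicate 2 of 6M_10M. Elsewhere it was at most 0.89. Where leaving them out changed a result, that value is given too. The entry matched to the symbol Htt, counted over all cells, had a log2 fold change of -0.20 under nZFP against DBD in zQ175 mice (SE 0.08, edgeR adjusted p = 0.0583). Whether that entry holds the reads of both alleles was not tested.

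Stress response genes carry known control elements, and the promoters of 70 members could be read in the RefSeq table (GRCm38.p6, 250 bases before to 50 after each start). Heat shock factors bind the heat shock element, searched as GAANNTTCNNGAA on both strands. It lay in at least 1 window of 4 of the 70 members (5.71%), Hspd1, Hspe1, Hsph1 and Dnajb6. Of all 32851 windows, 0.603% held it. The first is a share of genes, which had 90 windows, and the second a share of windows, so they are not like for like. Hspd1 and Hspe1 were counted for the same stretch, and members outside the 70 were not searched. The ER stress element, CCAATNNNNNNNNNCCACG, lay in windows of 3 members (4.29% of the 70), Hspa5, Hsp90b1 and Dnajc3. Of all windows 0.119% held it, again a share of windows and not of genes. The sequences around the matches are shown because the ER genes among them return among the results, and because Hspd1 and Hspe1 share 1 promoter. Capitals mark the element, and each sequence reads 5′ to 3′ in the direction of its gene.
Hspa5 (chr2:34771985-34772083, plus strand): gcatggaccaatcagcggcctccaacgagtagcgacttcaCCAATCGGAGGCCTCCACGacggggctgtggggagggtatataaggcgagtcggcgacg
Hsp90b1 (chr10:86705598-86705694, minus strand): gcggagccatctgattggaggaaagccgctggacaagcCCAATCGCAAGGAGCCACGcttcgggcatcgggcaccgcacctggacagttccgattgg
Dnajc3 (chr14:118937787-118937885, plus strand): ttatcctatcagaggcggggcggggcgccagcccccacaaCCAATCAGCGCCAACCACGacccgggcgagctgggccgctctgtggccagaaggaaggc
Hspe1 (chr1:55088024-55088116, plus strand): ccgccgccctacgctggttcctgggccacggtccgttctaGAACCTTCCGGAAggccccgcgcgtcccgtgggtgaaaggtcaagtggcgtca
Hsph1 (chr5:149636266-149636340, minus strand): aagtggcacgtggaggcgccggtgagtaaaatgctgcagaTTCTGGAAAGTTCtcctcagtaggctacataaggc
Dnajb6 (chr5:29735812-29735904, plus strand): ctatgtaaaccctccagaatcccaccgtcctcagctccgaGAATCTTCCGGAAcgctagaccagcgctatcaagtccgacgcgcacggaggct
Hsp90b1 and Hspe1 each held a further overlapping or neighbouring match on the opposite strand. A match is a run of letters and not a measured binding site.

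Levels in TPM (the same scaling, per transcript length) set the families apart. Summed over members, HSP70 and HSP90 had medians of 2734 and 2573 TPM per library, 27.2% and 25.3% of the chaperone total. The CCT ring held 10.8% (1098 TPM), the DNAJC family 12.3% (1254 TPM) and the small HSPs 0.61% (60.3 TPM). Within HSP70, constitutive Hspa8 stood at 1935 ± 292 TPM (SD, n = 233 libraries), while the heat-inducible Hspa1a and Hspa1b stood at 6.05 ± 1.83 and 3.12 ± 1.21 TPM. Those latter genes have near-identical sequences, so the division of reads between them is uncertain. Hsp90ab1 came second of all members (1592 ± 251 TPM) and Hsp90aa1 next (647 ± 128 TPM). In the ER, Hspa5 (the HSP70 also called BiP) and Hsp90b1 (the HSP90 also called GRP94) stood at 273 ± 51.0 and 265 ± 47.1 TPM, a gap smaller than either spread. The 7 tested CCT genes lay close together, from 94.9 TPM for Cct4 to 220 TPM for Cct7. The tested J proteins covered a wide range, from Dnaja1 at 300 ± 34.8 TPM to Dnajb13 at 0.226 ± 0.431 TPM, and Dnajb6, highest of the DNAJB family, was at 159 ± 13.2 TPM. In the BAG family, Bag6 had 193 ± 39.7 TPM and Bag2 3.5 ± 1.11 TPM.

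**Figure D1:**
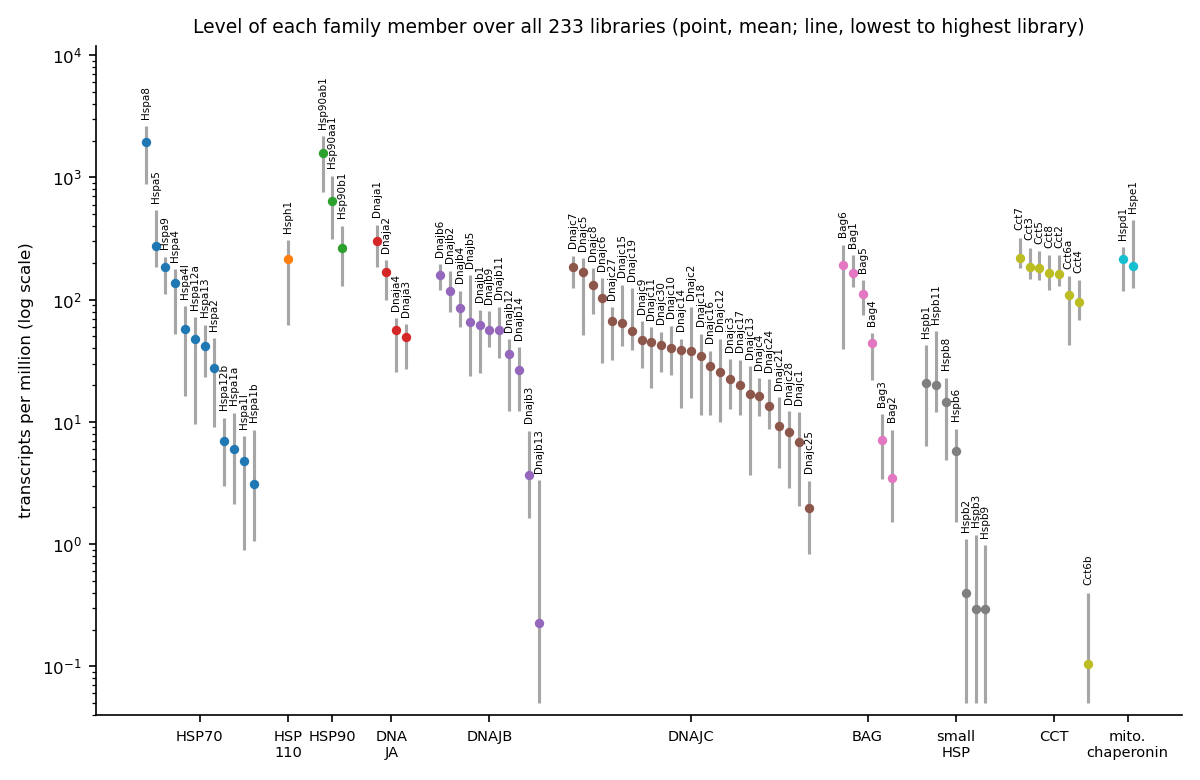
Level per transcript length of every member with a mean of at least 0.1 TPM, on a log axis, by family. Points are means over 233 libraries and lines run from the lowest to the highest library (drawn to 0.05 where that was lower); Hspa8, Hsp90ab1 and Hsp90aa1 stand highest, and the inducible Hspa1a and Hspa1b near the bottom of the HSP70 family.

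The first comparison asked how chaperone genes differ between zQ175 and WT striatum under the DBD virus. Hspa8, Hspa1a, Hspa2 and both cytosolic HSP90 genes were higher in zQ175 mice, and the ER chaperones Hspa5, Hsp90b1 and Dnajb11 were lower. Other members of these compartments did not follow. The cytosolic Hspa4 and Hsph1 were lower and the microsomal Hspa13 was higher. Hspa1b, Hspa4l, the DNAJA genes and the ER members Dnajc3 and Dnajb9 did not pass. The J proteins and BAG proteins went both ways. In the mean over the 5 paradigms (edgeR quasi-likelihood test, Benjamini-Hochberg adjusted p under 0.05), 23 members were higher and 15 lower, 38 of 77 or 49.4%. Of all 16792 genes tested, 46.9% passed, 24.9% higher and 22.0% lower. The share among members thus lay near that of all genes, and the median log2 fold change was -0.001 over the members and 0.011 over all genes. These are whole-tissue values, in which fewer cells of a type and less RNA per cell cannot be told apart. Markers of medium spiny neurons, the main striatal neuron, moved with the comparison: 9 of 10 were lower, and their summed level ran from 4260 to 7638 CPM (median 6154) in zQ175 DBD and from 6059 to 14686 CPM (median 12071) in WT DBD libraries. Of the astrocyte, microglia and endothelial markers, 7 of 8, 6 of 8 and 5 of 7 were lower. The part of cell makeup in the chaperone results was not tested.

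**Figure D2:**
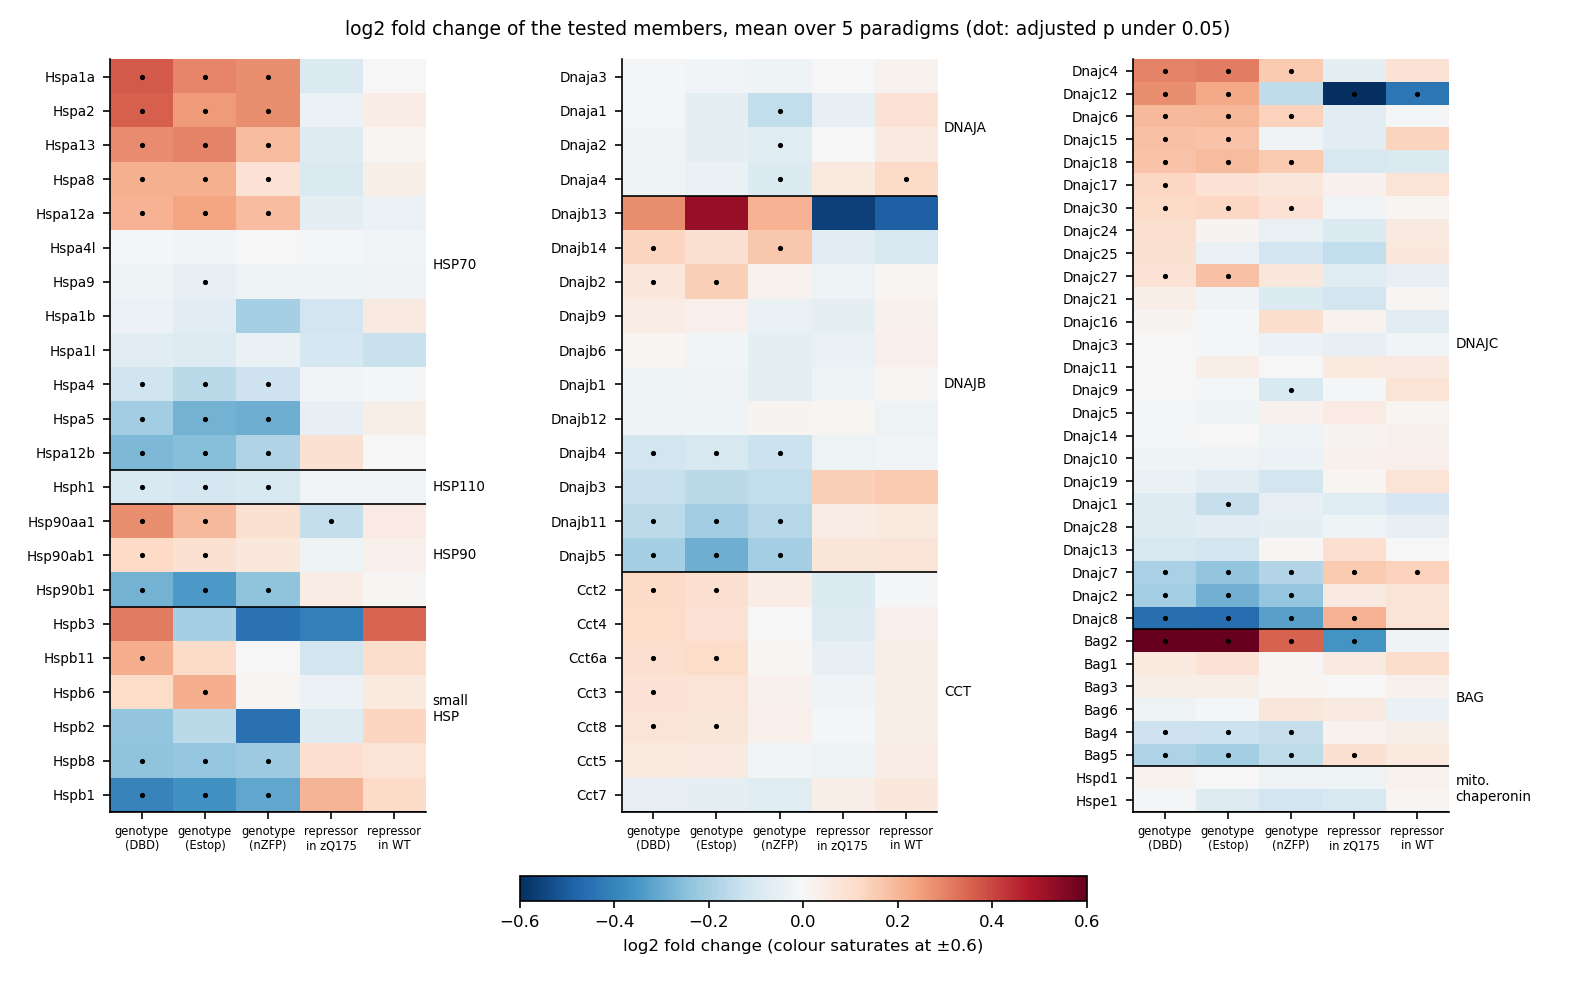
Log2 fold change of the 77 tested members, by family, in 5 comparisons, each a mean over the paradigms (red, higher; blue, lower; colour saturates at ±0.6). Dots mark adjusted p under 0.05; the 3 genotype columns carry most of the dots, and the 2 repressor columns carry few, among them Dnajc12 in both.

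Among the cytosolic HSP70 genes, Hspa1a, Hspa2, Hspa8 and Hspa12a rose. Hspa8, the constitutive HSP70 of neurons, ran from 1379 to 3111 CPM (median 2365) in 39 zQ175 DBD libraries and from 1576 to 2824 CPM (median 2048) in 39 WT DBD libraries. The ranges overlapped over all paradigms together, and they were apart in 6M_10M and 6M_12M. Its log2 fold change was 0.21 (SE 0.04, edgeR adjusted p = 1.64e-07). Hspa1a, the stress-inducible gene, had medians of 9.29 CPM (4.69 to 15.6) in zQ175 and 6.88 CPM (3.47 to 11.0) in WT, a log2 fold change of 0.37 (SE 0.06, edgeR adjusted p = 3.53e-08). Its near copy Hspa1b differed by -0.03 (SE 0.10, edgeR adjusted p = 0.803). Hspa2, best known from testis, had medians of 35.7 CPM (26.0 to 47.4) and 28.3 CPM (17.0 to 39.7) and a log2 fold change of 0.36 (SE 0.04, edgeR adjusted p = 6.32e-13). Hspa8, Hspa1a and Hspa2 were higher in 5 of 5 paradigms, and passed in 2, 3 and 4 of them. Hspa13, an HSP70-like protein of the microsomes, rose as well (0.28, SE 0.04). Hspa12b, a distant relative known from endothelium, fell by 0.27 on the log2 scale (SE 0.05, edgeR adjusted p = 9.81e-07). The part of cell makeup in this fall was not tested.

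HSP90 split by compartment. Cytosolic Hsp90aa1, the inducible form, ran from 877 to 2241 CPM (median 1056) in zQ175 DBD and from 710 to 1467 CPM (median 884) in WT DBD libraries, and rose by 0.28 (SE 0.04, edgeR adjusted p = 9.38e-10). Its highest zQ175 and its highest WT library were both among the 3 with a high length index. Constitutive Hsp90ab1 rose by 0.12 (SE 0.03, edgeR adjusted p = 0.000161), with medians of 1931 and 1816 CPM. The exchange factors Hspa4 and Hsph1, which serve cytosolic HSP70, fell by 0.12 (SE 0.03) and 0.09 (SE 0.04). Hspa4l, a close relative of Hspa4, was at -0.01 (edgeR adjusted p = 0.939).

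In the ER, Hsp90b1 fell. It had medians of 313 CPM (257 to 604) in zQ175 DBD and 382 CPM (306 to 577) in WT DBD libraries, a log2 fold change of -0.28 (SE 0.04, edgeR adjusted p = 6.06e-12). Its groups overlapped in 3 paradigms and were apart in 6M_10M and 6M_12M, and without the library that stood apart its 2M_6M value went from -0.13 to -0.32 (edgeR adjusted p = 0.00216). Hspa5, the ER HSP70, had medians of 292 and 337 CPM and fell by 0.21 (SE 0.05, edgeR adjusted p = 0.000253). It was lower in 5 of 5 paradigms without passing in any single one, although in 2M_6M it passed without that library (-0.40, edgeR adjusted p = 0.0274). Dnajb11, the ER J protein that works with Hspa5 (named after its values were seen), fell by 0.16 (SE 0.03). Of the other ER J proteins, Dnajc3 and Dnajb9 did not follow, at 0.00 (SE 0.02) and 0.04 (SE 0.05), with edgeR adjusted p of 0.946 and 0.479. Not every J protein of the ER is listed here. Dnajc3, Hspa5 and Hsp90b1 are the members with a match to the ER stress element in the promoters shown.

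**Figure D3:**
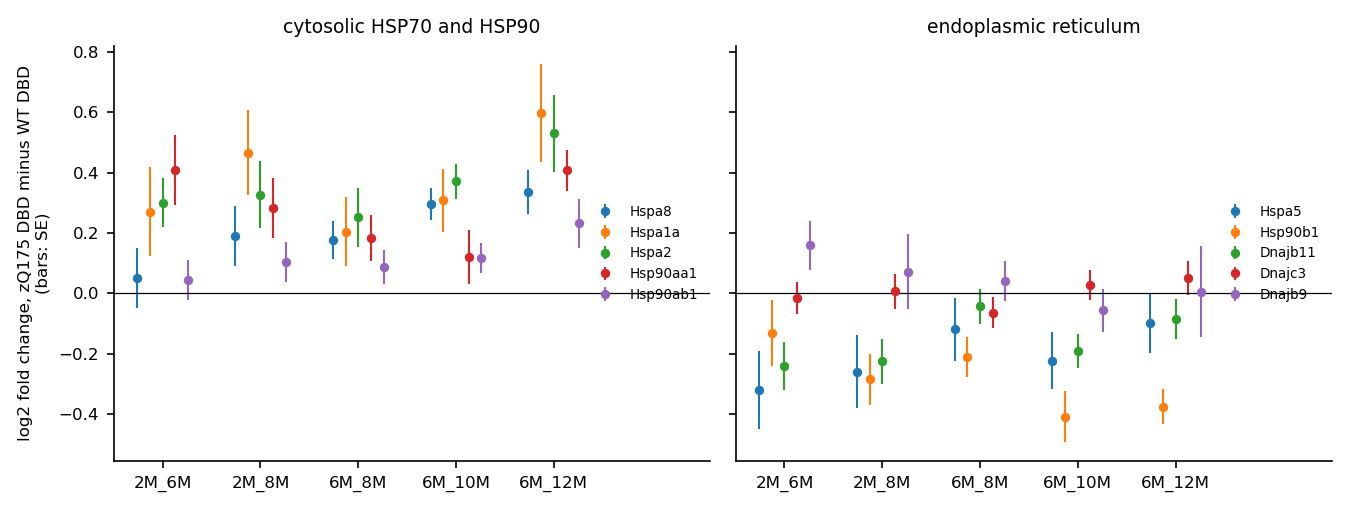
Genotype log2 fold change (zQ175 DBD minus WT DBD) of 5 cytosolic and 5 ER members in each paradigm, with SE bars. The cytosolic genes shown lie above 0 in every paradigm. Hspa5, Hsp90b1 and Dnajb11 lie below it, and Dnajc3 and Dnajb9 lie near it or on both sides. The genes are a chosen part of the members. Among those not shown, in the mean over paradigms, Hspa4 was lower, Hspa1b and Hspa4l did not pass, and Hspa12a and the microsomal Hspa13 were higher.

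Among 40 tested J proteins, 10 rose and 6 fell, where 24.9% of all genes were higher and 22.0% lower. Dnajc8, a J protein associated with splicing (chromosome 4, 132535550 to 132553742, GRCm38), had the lowest log2 fold change of all members at -0.45 (SE 0.04, edgeR adjusted p = 9.84e-24). Its level ran from 59.2 to 117 CPM (median 68.3) in zQ175 DBD and from 60.7 to 152 CPM (median 93.2) in WT DBD libraries, and the groups were apart in 2M_8M, 6M_10M and 6M_12M. Dnajc7, which binds both HSP70 and HSP90, fell by 0.19 (SE 0.03, edgeR adjusted p = 6.24e-12), from a median of 198 to 172 CPM. Dnajc2, a ribosome-bound J protein, and Dnajb5 each fell by 0.20 (SE 0.06). Dnajc4 (0.30, SE 0.04), Dnajc12 (0.28, SE 0.07), Dnajc6 (0.20, SE 0.03) and Dnajc18 (0.17, SE 0.04) rose. Dnajc6 is auxilin, which with Hspa8 uncoats clathrin vesicles, and Dnajc12 is a partner of the aromatic amino acid hydroxylases. Dnajb6 and Dnajb1, J proteins known for acting on polyglutamine aggregates, were at 0.01 (SE 0.03) and -0.02 (SE 0.04) and did not pass, whereas Dnajb2, with the same reputation, rose by 0.07 (SE 0.03, edgeR adjusted p = 0.0317) and no longer passed without the libraries that go against their labels. None of the 4 DNAJA genes passed, with Dnaja1 at -0.01 (SE 0.03).

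Bag2 had the highest log2 fold change of the members. It encodes an exchange factor that also inhibits the HSP70-linked ubiquitin ligase CHIP, and lies on chromosome 1, 33745484 to 33757795. In zQ175 DBD libraries it ran from 2.82 to 5.85 CPM (median 3.74), and in WT DBD libraries from 1.43 to 3.82 CPM (median 2.31). These groups were apart in 2M_8M, 6M_10M and 6M_12M, and the log2 fold change of 0.69 (SE 0.06, edgeR adjusted p = 1.08e-22) passed in each of the 5 paradigms, from 0.51 to 0.86. Other exchange factors of the family went the opposite way: Bag5 fell by 0.18 (SE 0.02) and Bag4 by 0.13 (SE 0.03). Bag3, which takes part in autophagy with Hspb8 and is itself heat-inducible, was at 0.03 (SE 0.05, edgeR adjusted p = 0.589), and Bag1 at 0.06 (SE 0.05).

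Of the small HSPs, Hspb1 and Hspb8 fell. Hspb1, also called HSP27, had medians of 7.29 CPM (4.21 to 10.3) in zQ175 DBD and 9.31 CPM (5.10 to 17.5) in WT DBD libraries, a log2 fold change of -0.40 (SE 0.08, edgeR adjusted p = 1.6e-05). Hspb8 fell by 0.24 (SE 0.05). Hspb11, a cilium transport protein that bears the family name, rose by 0.22 (SE 0.08, edgeR adjusted p = 0.0263), but its single passing paradigm, 2M_6M, went from 0.69 to 0.17 (edgeR adjusted p = 0.199) without the zQ175 DBD library that stood apart. In the CCT ring 4 of 7 tested subunits rose by 0.08 to 0.11 (Cct2, Cct3, Cct6a and Cct8) and none fell, where 24.9% of all genes were higher; under Estop 3 of 7 rose, Cct3 not among them. The mitochondrial pair, Hspd1 and Hspe1, was at 0.02 (SE 0.02) and -0.01 (SE 0.08), and mitochondrial Hspa9 at -0.03 (SE 0.02); none of these passed.

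Within single paradigms, 19, 14, 3, 19 and 15 members passed in the genotype comparison, beside 28.7%, 18.7%, 9.12%, 24.2% and 18.3% of all genes. With 74 or 75 members tested, these are 25.7%, 18.7%, 4.00%, 25.3% and 20.3% of them. The low 6M_8M count rose to 13 without its libraries that go against their labels (16.8% of all genes), and to 13 with Estop as the control (14.7% of all genes). No member's genotype effect differed between paradigms (edgeR F-test over the 5 effects; 0 of 77 passed and 3 had an unadjusted p under 0.05; 0.363% of all genes passed). Shares of all genes are given at the adjusted p, so a count of members at an unadjusted p has none beside it. Age at collection and cohort cannot be told apart across the paradigms.

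Under the other control virus, Estop, the comparison of zQ175 with WT used other libraries, although 39 of the 78 mice with a DBD library gave an Estop library from the other hemisphere. There 37 members passed (20 higher, 17 lower), against 46.6% of all genes. Of them 34 had also passed under DBD, all in the same direction, which is 89.5% of the DBD list and 91.9% of the Estop list. Bag2 was at 0.64 (SE 0.06), Dnajc8 at -0.46 (SE 0.04) and Hsp90b1 at -0.34 (SE 0.04) under Estop. The 4 that passed under DBD alone were Hspb11, Dnajb14, Cct3 and Dnajc17, with Hspb11 at 0.11 and Dnajb14 at 0.09 under Estop. The 3 that passed under Estop alone were Hspb6 (0.22, SE 0.05), Dnajc1 and Hspa9. No test compared the effects under both control viruses.

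The second comparison asked what the repressor changed in zQ175 striatum, nZFP against DBD. In the mean over paradigms 6 of 77 members passed (7.79%), against 17.1% of all genes (8.61% higher, 8.52% lower). Dnajc12, Bag2 and Hsp90aa1 fell, and Dnajc8, Dnajc7 and Bag5 rose. The count was 12 with the mouse as a block in limma voom (15.6%, against 20.7% of all genes) and 20 once the length index entered as a covariate (26.0%, against 28.4% of all genes), where 6 were higher and 14 lower. Spiny neuron markers moved here too, with 9 of 10 higher and their summed level at 5545 to 11002 CPM (median 8305) under nZFP; 3 of 8 microglia markers were higher too. Their part in the results was not tested.

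Dnajc12 (chromosome 10, 63382443 to 63410576) changed most. In zQ175 nZFP libraries it ran from 5.46 to 21.0 CPM (median 9.77), below the zQ175 DBD libraries (13.4 to 41.8 CPM, median 17.4) and also below the WT DBD libraries (7.35 to 26.9 CPM, median 14.7). The zQ175 groups were apart in every paradigm but 2M_8M. Their means ± SD were 21.4 ± 9.09 (n = 7) and 11.4 ± 1.60 CPM (n = 8) in 2M_6M, and 19.9 ± 5.68 and 8.08 ± 1.44 CPM (n = 8 each) in 6M_12M. The log2 fold change was -0.87 (SE 0.07, edgeR adjusted p = 4.34e-24), and per paradigm it was -0.92, -0.44, -0.83, -0.86 and -1.30, of which all but 2M_8M passed. Without the library that stood apart the 2M_6M value was -0.67, and against Estop the mean was -0.89.

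Dnajc12 also fell in WT mice, which carry no expanded allele. WT nZFP libraries had a median of 11.1 CPM (6.98 to 20.2), and the log2 fold change was -0.43 (SE 0.07, edgeR adjusted p = 3.05e-07; -0.51 against Estop). The groups were apart in 2M_6M and 6M_10M. The test of the difference between genotypes, the interaction, passed with -0.43 in the mean over paradigms (SE 0.10, edgeR adjusted p = 0.00112). There the fall was larger in zQ175. Within single paradigms no member's interaction passed. WT DBD replicates 7 and 8 of 6M_8M, kept in these fits, held 320.6 and 480.5 CPM of the repressor's entry. No other member fell in WT in the mean over paradigms. Without the libraries that stood apart Hspa1l and Dnajc18 passed as lower as well.

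Bag2 fell by 0.36 on the log2 scale in zQ175 (SE 0.06, edgeR adjusted p = 3.16e-07) and was at -0.02 (SE 0.06) in WT. Its zQ175 nZFP libraries ran from 1.96 to 3.94 CPM (median 3.23), between the medians of WT DBD (2.31 CPM) and zQ175 DBD (3.74 CPM). In 2M_6M it had a mean of 2.48 ± 0.413 CPM under nZFP (n = 8), near the 2.41 ± 0.630 CPM of WT DBD (n = 8), against 3.73 ± 0.530 CPM in zQ175 DBD (n = 7). In 6M_12M the 3 means were 3.18 ± 0.482, 2.20 ± 0.196 and 4.00 ± 0.693 CPM. The effect passed in 2M_6M alone (-0.60; the others were -0.41, -0.27, -0.18 and -0.32), a difference between paradigms that did not itself pass. Against Estop, under which zQ175 Bag2 was lower (median 3.37 CPM), the mean effect was -0.17 and still passed. Its interaction was -0.34 (SE 0.09, edgeR adjusted p = 0.00544).

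Hsp90aa1 fell by 0.14 (SE 0.04, edgeR adjusted p = 0.00794), with medians of 949 and 1056 CPM under nZFP and DBD. It no longer passed against Estop (-0.09). Its only passing paradigm, 2M_6M, went from -0.40 to -0.15 (edgeR adjusted p = 0.136) without the library of 2241 CPM. The interaction was -0.19 (SE 0.06, edgeR adjusted p = 0.0412), and Dnajc12, Bag2 and Hsp90aa1 were the 3 members that passed there (3.90%, against 3.64% of all genes).

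Of the genes that were higher, Dnajc8 rose by 0.21 (SE 0.04, edgeR adjusted p = 4.37e-06) to a median of 78.9 CPM (65.5 to 117), still below WT DBD at 93.2 CPM. Dnajc7 rose by 0.15 (SE 0.03) in zQ175 and by 0.14 (SE 0.03) in WT, with an interaction of 0.02 (SE 0.04, edgeR adjusted p = 0.896). In WT it was also the single member that differed between the control viruses, at -0.10 (SE 0.02) under DBD against Estop, and against Estop its rise in WT was 0.04 and did not pass. Bag5 rose by 0.09 (SE 0.02), and by 0.06 without passing against Estop. The ER genes lowered by genotype did not rise: Hsp90b1 was at 0.04 (SE 0.04) and Hspa5 at -0.05 (SE 0.05).

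**Figure D4:**
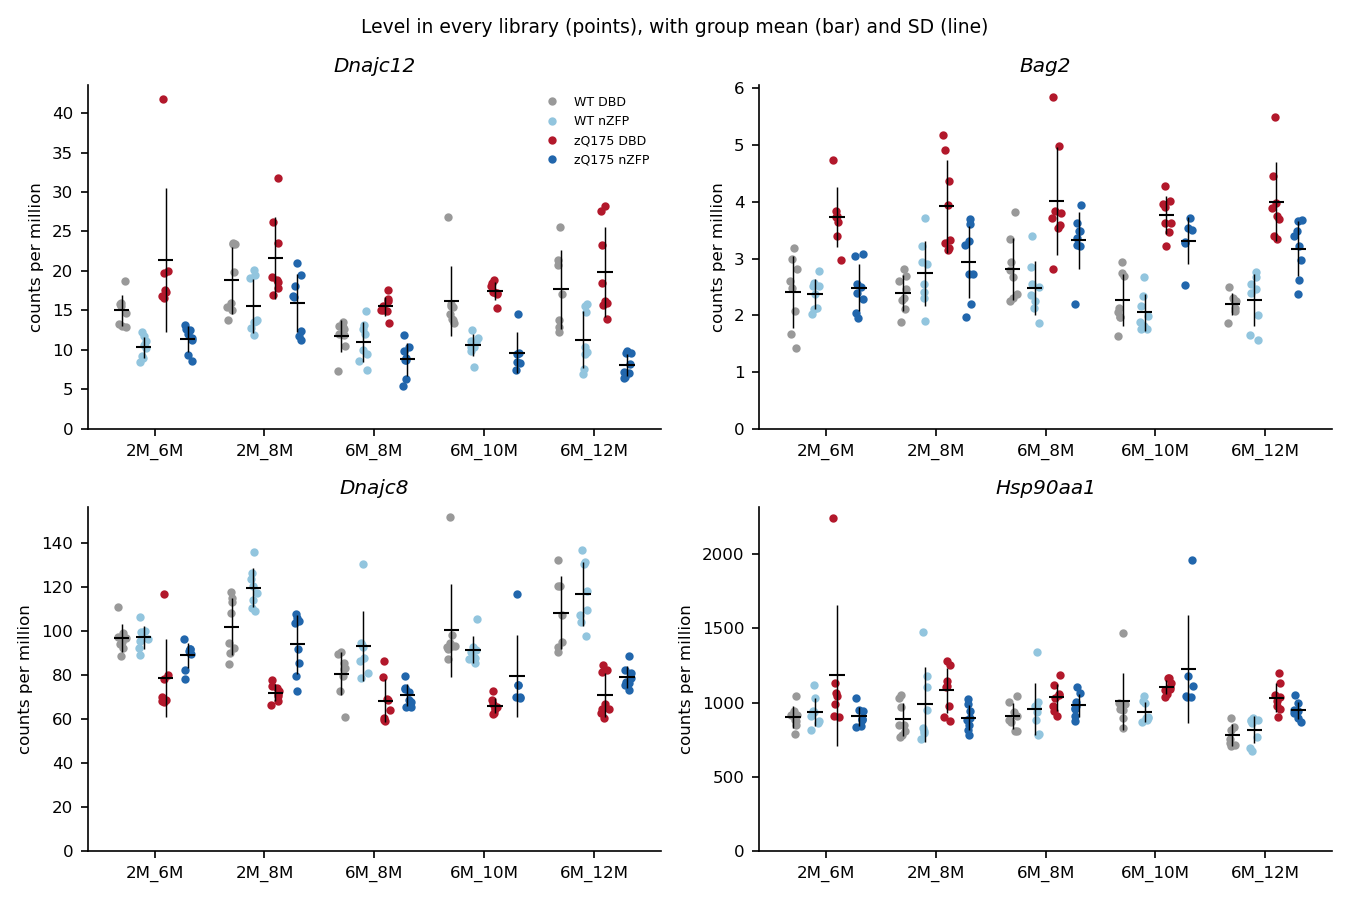
CPM of Dnajc12, Bag2, Dnajc8 and Hsp90aa1 in every DBD and nZFP library, by paradigm, with group means (bars) and SD (lines). Dnajc12 is lower under nZFP in both genotypes, Bag2 is high in zQ175 DBD, Dnajc8 is low in zQ175 DBD, and single high libraries stand out for Hsp90aa1 in 2M_6M (2241 CPM) and 6M_10M (1962 CPM).

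By paradigm the repressor changed 14, 5, 1, 1 and 1 members in zQ175, against 23.2%, 7.06%, 0.113%, 0.972% and 1.25% of all genes. The single member in each of the last 3 was Dnajc12. Without the library that stood apart the 2M_6M count was 7 (13.8% of all genes), with Estop as control it was 2 (7.38%), and the 2M_8M count was 2 with Estop (5.23%). In 2M_8M the length index had means ± SD of 0.393 ± 0.358 under nZFP and 0.181 ± 0.312 under DBD in zQ175 (n = 8 each). In WT they were 0.596 ± 0.159 and 0.247 ± 0.334 (n = 8 each), and under Estop the means were 0.379 in zQ175 and 0.374 in WT. A difference of the index between viruses was not tested. With the index as covariate the 2M_8M counts were 11 in zQ175 (13.6% of all genes) and 1 in WT (1.78%). The effect differed between paradigms for 2 of 77 members (2.60%; 3.36% of all genes), Hspe1 (edgeR adjusted p = 0.0394) and Hsp90aa1 (edgeR adjusted p = 0.0494). Hspe1, the mitochondrial co-chaperonin, was at -0.56, 0.19, -0.12, 0.41 and -0.41. Without the libraries that stood apart neither passed, and Hspe1 was at -0.08 in both 2M_6M and 6M_10M. Hspd1, which faces Hspe1 across their shared promoter, was at -0.03 (SE 0.02) in the mean.

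Another comparison asked which genotype differences remained when both genotypes carried the repressor. Under nZFP, 30 of 77 members passed (39.0%), 11 higher and 19 lower, against 36.3% of all genes (19.3% higher, 17.0% lower). Spiny neuron markers were lower here as well (9 of 10), with a summed median of 8305 CPM in zQ175 nZFP and 12396 CPM (9575 to 14493) in WT nZFP libraries. So were 6 of 8 astrocyte, 3 of 8 microglia and 1 of 7 endothelial markers, and their part in the results was not tested. Of these, 26 had passed in the same direction under DBD, 11 higher and 15 lower, which is 68.4% of the DBD list and 86.7% of the nZFP list. The libraries of both lists differ, but 37 of 78 mice gave one to each. Higher under both viruses were Bag2 (0.35 under nZFP, 0.69 under DBD), Hspa2 (0.28 and 0.36), Hspa1a (0.28 and 0.37) and Hspa13 (0.19 and 0.28). Lower under both were Dnajc8 (-0.33 and -0.45), Hspb1 (-0.31 and -0.40), Hspa5 (-0.29 and -0.21), Hsp90b1 (-0.24 and -0.28) and Dnajc7 (-0.18 and -0.19). For none of these but Bag2 did the interaction pass.

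Hsp90aa1 (0.09, SE 0.04) and Hsp90ab1 (0.06, SE 0.03) did not pass under nZFP, with edgeR adjusted p of 0.072 and 0.0788, and neither did any CCT subunit, with Cct2 at 0.04 (SE 0.03). Dnajc12 was at -0.15 (SE 0.07, edgeR adjusted p = 0.072), and passed as lower without the libraries that stood apart (-0.18, edgeR adjusted p = 0.0131) or those against their labels (-0.17, edgeR adjusted p = 0.0393). Hspe1 passed as lower without the former (-0.22, edgeR adjusted p = 0.00307; -0.12 with them). Of the 4 DNAJA genes, Dnaja1 (-0.15, SE 0.03), Dnaja4 (-0.08, SE 0.03) and Dnaja2 (-0.07, SE 0.03) were lower here, and Dnaja3 did not pass. In WT, Dnaja4 rose under nZFP by 0.12 (SE 0.03, edgeR adjusted p = 0.00738; 0.04 against Estop, not passing), and the interaction passed for none of these.

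By paradigm 0, 3, 20, 12 and 10 members passed under nZFP, against 1.54%, 6.67%, 17.1%, 19.6% and 16.7% of all genes. In 2M_6M, where none passed with edgeR, 8 had an unadjusted p under 0.05, and Bag2, Dnajc8 and Hsp90b1 were at 0.06, -0.14 and -0.29. Without the library that stood apart 2 passed there (3.96% of all genes), among them Hsp90b1 (-0.29, edgeR adjusted p = 0.0171). In 6M_8M, after the shortest treatment, the 20 members held Bag2 at 0.41, Dnajc8 at -0.41 and Hspa5 at -0.38. The 6M_10M count was 20 without its libraries that stood apart (24.3% of all genes). No member's effect under nZFP differed between paradigms (0 of 77 passed, against 1.59% of all genes at the same adjusted threshold). In that F-test 27 members had an unadjusted p under 0.05. Neither this count nor the 8 in 2M_6M has a share of all genes at the unadjusted p beside it. The nearest to passing were Hsp90aa1 (-0.05, -0.13, 0.02, 0.38 and 0.21, edgeR adjusted p = 0.0519) and Bag4 (edgeR adjusted p = 0.0623). Bag4 passed without the libraries that stood apart (edgeR adjusted p = 0.0251; Hsp90aa1 then had 0.105), and Hsp90aa1 passed without those against their labels (edgeR adjusted p = 0.0444; Bag4 then had 0.0588).

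**Figure D5:**
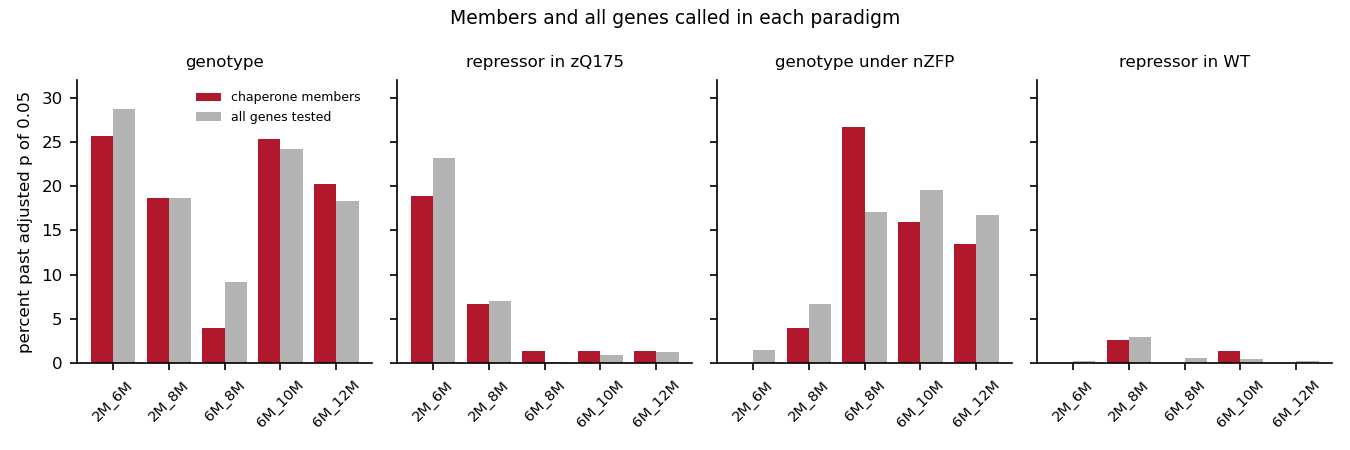
Percent of the tested members (red) and of all tested genes (grey) that passed an adjusted p of 0.05 in each paradigm and comparison. Members pass at 18.9% and all genes at 23.2% for nZFP in the zQ175 mice of 2M_6M, and the repressor in WT stays at or under 2.98% for both.

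In WT mice the repressor changed 3 members in the mean (3.90%, against 3.33% of all genes): Dnajc12 fell, and Dnajc7 and Dnaja4 rose. Without the libraries that stood apart the count was 11 (14.3%, against 6.87% of all genes), with 8 higher and 3 lower. By paradigm 0, 2, 0, 1 and 0 passed, against 0.268%, 2.98%, 0.581%, 0.480% and 0.238% of all genes, and in 2M_6M, 6M_8M and 6M_12M, where none passed with edgeR, 1, 15 and 3 had an unadjusted p under 0.05. Between the control viruses, DBD against Estop, 1 member passed in WT (3.26% of all genes) and 0 of 77 in zQ175 (2.70% of all genes; 9 members had an unadjusted p under 0.05 with edgeR, and 3 passed with limma voom, beside 4.58% of all genes). Bag2 came nearest in zQ175, at 0.19 higher under DBD (SE 0.06, edgeR adjusted p = 0.0551). The shares of all genes in this paragraph are at the adjusted p, so its counts at an unadjusted p have none beside them.

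Other genes of these pathways, listed by function, were counted beside the members. Of 44 tested regulators and partners of the heat shock system, 11 were higher and 7 lower in zQ175 DBD against WT DBD, with a median log2 fold change of 0.004, beside the 24.9% of all genes that were higher and the 22.0% that were lower. Hsf1, the main heat shock transcription factor, fell by 0.27 and Hsf2 rose by 0.12. The list's HSP90 co-chaperones went different ways. Ahsa2 rose by 0.54, Fkbp4 by 0.22, Ahsa1 by 0.19, Unc45a by 0.17 and Stip1 by 0.11, Chordc1 fell by 0.35 and Unc45b by 0.28, and Cdc37 (0.01), Ptges3 (-0.01) and Fkbp5 (-0.03) did not pass. These genes were picked from the list after their values were seen. Under the repressor in zQ175, 1 of the 44 was higher (Lonp1, 0.07) and 5 were lower, beside 8.61% and 8.52% of all genes: Ahsa2 (-0.32), Cdc37l1 (-0.14), Hsf2 (-0.12), Ahsa1 (-0.12) and Stip1 (-0.08). Between genotypes under nZFP, Ahsa2 (0.26), Unc45a (0.19), Fkbp4 (0.10) and Hsf2 (0.08) passed as higher. Chordc1 (-0.32), Hsf1 (-0.20), Pfdn2 (-0.195), Cacybp (-0.17), Sgtb (-0.13), St13 (-0.115), Clpx (-0.08) and Lonp1 (-0.07) passed as lower. Of all genes, 19.3% were higher and 17.0% lower there. Ahsa1, an activator of HSP90, and Stip1, which links HSP70 to HSP90, did not pass (edgeR adjusted p of 0.259 and 0.988).

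Of 26 ER stress genes, 14 were lower and 7 higher between genotypes under DBD (22.0% and 24.9% of all genes), with a median of -0.113 against 0.011 for all genes. Among the 14 lower ones were partners of the ER chaperones: the disulfide isomerases Pdia4 (-0.28) and Pdia6 (-0.27) and the Hspa5 cofactor Sdf2l1 (-0.44). The sensor Atf6 (-0.54) and the factors Xbp1 (-0.25) and Ddit3 (-0.21) were lower too. The sensors Ern1 (0.14) and Eif2ak3 (0.10) were higher, as were Atf3 (0.43), Sesn2 (0.23), Chac1 (0.15), Edem1 (0.14) and Asns (0.12). Under nZFP 14 were lower and 6 higher (17.0% and 19.3% of all genes), at a median of -0.101, and the repressor in zQ175 raised 4 (Trib3, Atf6, Ppp1r15a and Ddit3, by 0.34, 0.18, 0.14 and 0.12) and lowered 3, beside 8.61% and 8.52% of all genes. The cold-inducible RNA-binding genes Cirbp and Rbm3 were both higher in zQ175, by 0.39 and 0.27.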

How the data were processed

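The authors deposited a table of expected counts from RSEM, an estimate for each gene in which shared reads are split (91.5% were whole numbers within 0.0001), and a further table named for FPKM. Each column of that deposited table sums to the fixed total that defines TPM, so its values were taken to be TPM, and it was used for levels alone; the named-gene rule's mean FPKM was read as this TPM. RSEM and GRCm38 stand in the submitters' processing notes; the aligner, the annotation release, strand use in counting and versions were not given in these sources. Symbols came from GENCODE M21 (40254 of 41129 entries matched); biotypes came from it or RefSeq.

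After rounding, expected counts went through edgeR 4.0.16 (R 4.3.3): genes were filtered with filterByExpr on the groups, scaled by TMM and tested with the robust quasi-likelihood F-test and sex as covariate, over all genes without the 6 vector entries (at most 0.669% of a library). The main result is the mean contrast over paradigms in 1 fit of 30 groups (16792 genes). Each paradigm also had a fit of its own (15673, 15786, 16000, 15840 and 15523 genes), and F-tests asked whether an effect differed from paradigm to paradigm. The Benjamini-Hochberg adjustment ran over all genes of a fit. The groups come from the labels. Each library of a group comes from another mouse, and comparisons that share a group share its libraries. The alternatives were DESeq2 1.42.0 and its size factors, no count filter, no sex covariate, limma 3.58.1 voom with the mouse as block, and a replicate block. Others were the length index (short against long genes) as covariate, Estop as control, and leaving out doubted libraries. In simulated counts 200 genes were changed, and libraries of a mouse were drawn without a link. The mean contrast for genotype recovered 49% of genes changed 1.15-fold and 95% changed 1.3-fold, with 5.26% false calls (16398 genes run). The 6M_12M fit recovered 0% and 20% (15623 genes run). In the data 46.9% and 18.3% of all genes passed in these comparisons. The adjusted threshold depends on that share, so these recoveries need not hold for the data.

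Named members were fixed sentinels of each family, up to 8 passing members per direction and main comparison by size of change (mean of at least 1 CPM), those passing in the interaction or between control viruses, the 6 members with the smallest p for a difference between paradigms, and the highest and lowest of each family per length. Dnajb11, Dnaja2, Cct3 and Cct6a fall outside it and were chosen after their values were seen. The members, lists and rules were chosen with earlier results of these data known. Marker lists for oligodendrocytes, mural, ependymal, choroid plexus, cortical and lymphoid cells were also counted: under the genotype comparison 3 of 8, 0 of 7, 1 of 7, 1 of 5, 3 of 6 and 0 of 4 tested genes were higher and 4, 1, 0, 0, 0 and 2 lower.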

Additional observations from a re-analysis of the deposited data

Results flagged for a closer look

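By the interaction test in the mean over paradigms, the repressor's effect differed between genotypes for Dnajc12 (log2 difference of -0.434, zQ175 minus WT), Bag2 (-0.337) and Hsp90aa1 (-0.189). No interaction passed within a single paradigm. The repressor's effect in zQ175 differed between paradigms for Hspe1 (edgeR adjusted p = 0.0394) and Hsp90aa1 (edgeR adjusted p = 0.0494). Without the libraries that stood apart in the length index neither passed (edgeR adjusted p of 0.587 and 0.678).

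The levels of Dnajc12, Bag2, Hsp90aa1 and Dnajc8 were searched for a library far from its group, in 80 sets of DBD or nZFP libraries; 14 were found. Such a search marks about 1 in 20 independent sets by chance, and these sets share libraries between genes. In zQ175 DBD of 2M_6M, replicate 3 held 41.8 CPM of Dnajc12, 2241 CPM of Hsp90aa1 and 117 CPM of Dnajc8, against at most 20.0, 1132 and 80.0 CPM in the others. In WT DBD of 6M_10M, replicate 2 held 26.9, 1467 and 152 CPM, against at most 15.9, 997 and 98.1 CPM. In zQ175 nZFP of 6M_10M, replicate 2 held 14.6, 1962 and 117 CPM, against at most 9.65, 1179 and 75.4 CPM. These are the 3 libraries with a length index above 1. WT nZFP replicate 8 of 6M_8M held 1340 CPM of Hsp90aa1 (next 1001) and 130 CPM of Dnajc8 (next 94.7), and WT nZFP replicate 2 of 6M_10M held 105 CPM of Dnajc8 (next 92.7). Bag2 was low in zQ175 nZFP replicate 5 of 6M_8M (2.20 CPM, next 3.22), whose vector entries go against its label, and in zQ175 nZFP replicate 1 of 6M_10M (2.53 CPM, next 3.28).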

How the results depend on the processing

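Of 157 recomputed counts of passing members, 103 lay within 1.5 times the reported count and 54 did not; the causes of these shifts were not tested. Among members named in the main comparisons, 297 of 300 genotype values, 58 of 60 for the repressor in zQ175, 222 of 225 under nZFP and 28 of 30 for the repressor in WT kept their call, and 0 reversed. Counts are given with the reported one in parentheses, and paradigms in the usual order. The share of all genes that passed is given above for some of these counts, and the others are not read as results about the members. That share can move too. With the length index as covariate, 28.4% of all genes passed for the repressor in zQ175 in the mean, against 17.1% without it.

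With the length index as covariate, the repressor in zQ175 gave 20 (6), the repressor in WT 5 (3) and the interaction 6 (3) in the mean over paradigms. By paradigm that covariate gave 28, 13, 34 and 29 for genotype from 2M_8M on (14, 3, 19 and 15), and 11, 3 and 7 for the repressor in zQ175 in 2M_8M, 6M_10M and 6M_12M (5, 1 and 1). It gave 2, 12, 29 and 22 under nZFP in all but 6M_8M (0, 3, 12 and 10), and 1, 1 and 2 for the repressor in WT in 2M_6M, 2M_8M and 6M_12M (0, 2 and 0). With limma voom and the mouse as block, the means gave 12 (6) and 5 (3) for the repressor in zQ175 and WT, and 3 (1) and 3 (0) between control viruses in WT and zQ175. By paradigm voom gave 9 and 2 for the repressor in zQ175 in 2M_8M and 6M_12M (5 and 1), and 1, 9, 1 and 2 in WT in all but 6M_10M (0, 2, 0 and 0).

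The replicate numbers marked mice in part: of 113 mice with both hemispheres, 59 had the same number in both, but 5 of the 37 with DBD and nZFP. Deviations correlated at a median of 0.15 over 566 same-numbered pairs (lowest -0.88), -0.013 over other numbers and 0.36 within a mouse. With a replicate block, the repressor in zQ175 gave 13 (6) in the mean and 2 and 16 (1 and 1) in 6M_10M and 6M_12M. The same block gave 37 (10) under nZFP in 6M_12M, 1, 4 and 1 (0, 2 and 0) for the repressor in WT in 2M_6M, 2M_8M and 6M_12M, and 4 (1) and 1 (0) between control viruses in WT and zQ175.

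Without the libraries that stood apart, the repressor in WT gave 11 (3) in the mean and 1 (0) in 2M_6M, the repressor in zQ175 gave 7 (14) in 2M_6M, nZFP gave 2 (0) and 20 (12) in 2M_6M and 6M_10M, and the control viruses in zQ175 gave 1 (0). Differences between paradigms then gave 0 (2) for the repressor in zQ175 and 1 (0) under nZFP. Without the libraries against their labels, genotype gave 13 (3) and the repressor in WT 1 (0) in 6M_8M, control viruses in zQ175 gave 1 (0), and differences between paradigms under nZFP gave 1 (0). With Estop in place of DBD, genotype gave 13 (3) and 9 (15) in 6M_8M and 6M_12M, the repressor in zQ175 2 (14) and 2 (5) in 2M_6M and 2M_8M, and the repressor in WT 1 (0) and 0 (2).

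In the simulated 6M_12M fit, the single paradigm simulated, few small changes were recovered (20% of those of 1.3-fold). That simulation changed 200 genes, fewer than passed in the data, so its recovery need not hold there.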
